A study of Mus musculus with 2 samples.

Results

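Voltage-gated calcium and sodium channels are described here through their genes: every gene of the deposited table whose symbol begins with Cacna1, Cacna2d, Cacnb or Cacng, or has the form Scn, a number and a or b. There were 40 such genes among the 28693 listed. They comprise 10 calcium channel pores, 4 alpha-2-delta, 4 beta and 8 gamma subunits, 10 sodium channel pores and 4 sodium channel beta subunits. The genes were matched on their symbols only, but the set was chosen with earlier results of these data known. Each gene is followed through the cell types of the pituitary gland, in both libraries, on a total that leaves out the hormone transcripts.

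A voltage-gated calcium channel is built around 1 large pore protein, which sets its type (L; P/Q, N or R; or T), while alpha-2-delta and beta subunits bring the pore to the membrane and adjust its opening. Sodium channels likewise have a pore protein and small beta subunits that resemble adhesion molecules. Hormone cells of the anterior pituitary fire action potentials, and the calcium that enters through these channels drives hormone release. The different hormone cells are known to fire in different patterns.

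The glands came from 7-week-old male C57BL/6 mice that carried no modified allele and received no treatment. In all 6 mice were used, pooled as 3 glands per library, and the 2 pools are the 2 libraries. Tissue was digested for 4 h into single cells, and transcripts were captured by their 3′ ends with droplet barcodes. Each captured molecule carries a unique molecular identifier (UMI). There was no second condition, so every comparison below is between cell types of the same pools, and p-values measure only how far 2 pools disagree.

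The libraries held 6546 and 7117 barcodes with 70813117 and 78861988 UMIs. The 7 hormone genes (Gh, Prl, Pomc, Cga, Lhb, Fshb and Tshb) took 50.0% and 48.6% of the UMIs. After filters, 11729 cells fell into 11 classes named from marker genes, with no channel gene among the markers, and 805 cells (6.42%) in 4 clusters stayed unnamed. The classes were somatotrope-like (5977 cells), lactotrope-like (3182), corticotrope-like (565), gonadotrope-like (550), stem-like (359), endothelial-like (281), melanotrope-like (254), cycling (228), fibroblast-like or pericyte-like (162), macrophage-like (118) and pituicyte-like (53, of which 20 in library 1 and 33 in library 2). All markers of a class had UMIs in it, except in corticotrope-like cells, where 6 of 7 did. The libraries shared 54 barcode sequences. No thyrotrope-like class could be named in the main clustering: the cluster led by Tshb was among the unnamed. A finer clustering (Leiden resolution 2) did name a thyrotrope-like cluster of 41 cells, 2.44% of them with over 30% Gh. Channel levels in that cluster were not tested. Outside the somatotrope-like and cycling classes the median cell still had between 0.686% and 1.29% of its UMIs from Gh, and up to 15.4% of a class's cells in 1 library had over 30%. The part of such Gh-rich cells in the low channel values of other classes was not tested beyond leaving them out, which lost 2 single calls and left too few pituicyte-like cells to test.

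Levels are UMIs per 1000000 UMIs outside the hormone genes (CPM), with library totals scaled by TMM, a normalisation of edgeR, and pairs of values are library 1 and library 2 in that order. A UMI marks 1 captured 3′ end and is not divided by transcript length. A level therefore compares a gene across classes, not 1 gene with another. Fold changes are log2 values ± standard error (SE) from edgeR's quasi-likelihood test, with p-values adjusted over all 12109 genes tested.

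Of the 40 genes, 24 passed the filter on low counts and were tested, and 16 did not pass. All 4 calcium channel beta genes could be judged, as could 6 of 10 sodium pores, 3 of 4 sodium beta genes, 2 of 3 T-type pores, 2 of 3 pores of the P/Q, N and R group, 2 of 4 alpha-2-delta genes and 4 of 8 gamma genes. Of the 4 L-type pores only Cacna1d was judged. Even these 24 genes were sparse in the small classes, and none reached 10 UMIs in more than 9 of the 11 classes. A gene could pass the filter on low counts through 1 class alone. Among such genes were Scn2a1 through melanotrope-like cells, and Scn3b and Cacng2 through corticotrope-like cells. Others were Cacng8 through gonadotrope-like cells, and Cacnb4 and Scn9a through pituicyte-like cells. All of these were tested because they were high in the class named, so their calls there are no separate support.

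**Figure D1:**
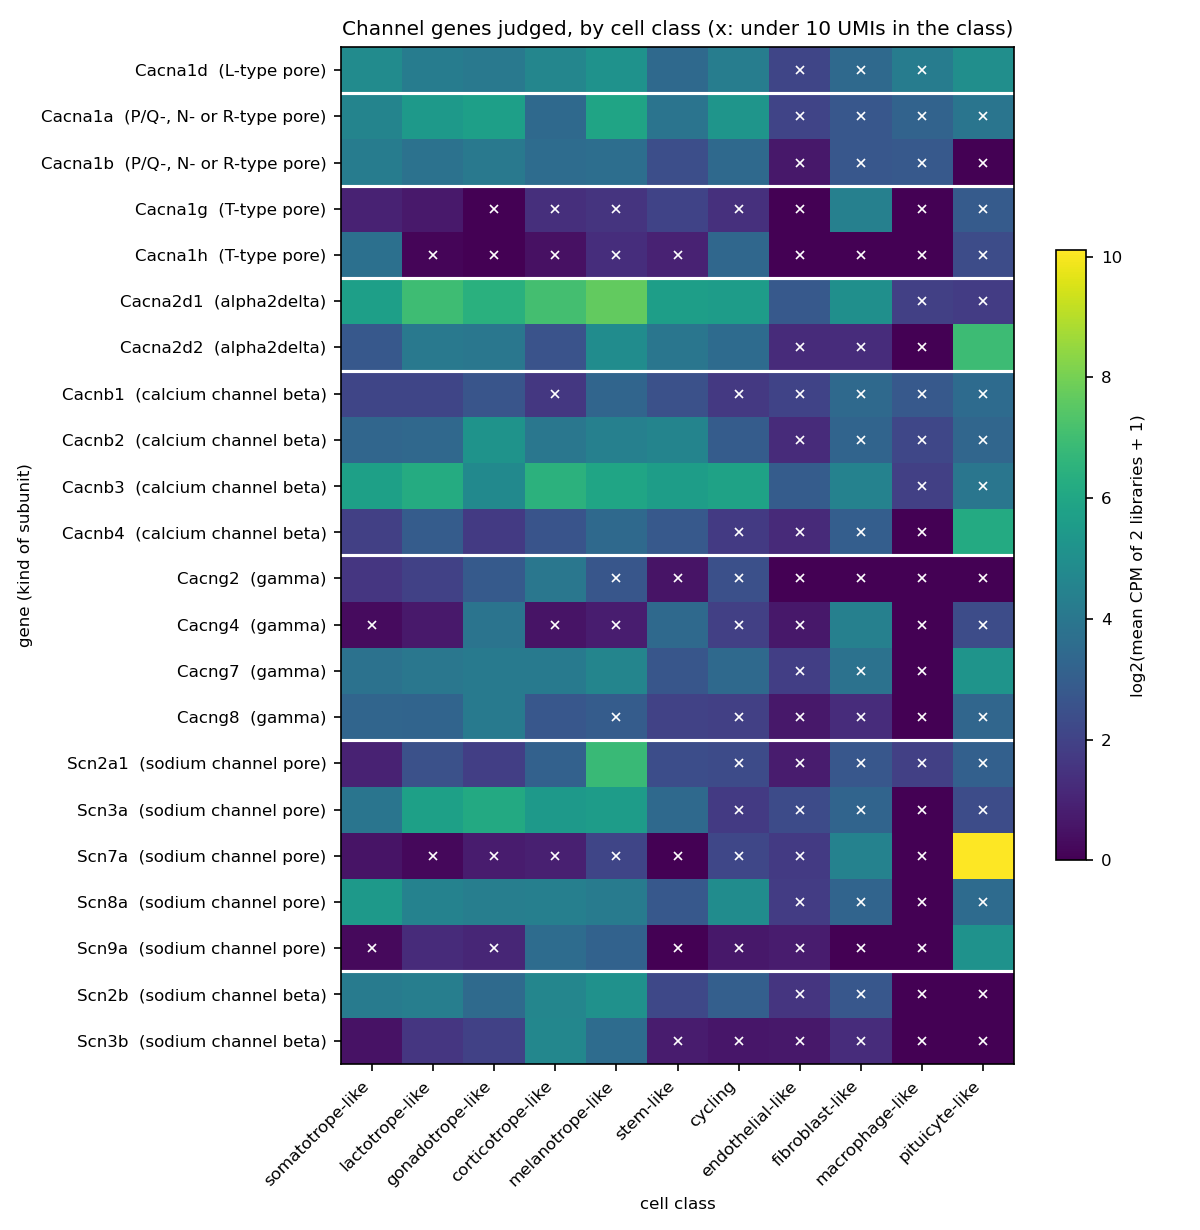
Mean level of 22 judged channel genes (rows, grouped by kind of subunit) in 11 cell classes (columns), as log2 of the mean CPM of 2 libraries plus 1; crosses mark classes with under 10 UMIs of the gene. Scn7a in pituicyte-like cells (952 and 1251 CPM) is the brightest field, and most calcium channel rows are crossed in endothelial-like and macrophage-like cells.

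On the genome, 5 sodium channel pores are neighbours on chromosome 2, over 1328 kb in GENCODE M21 on the mm10 build (GRCm38), the build of the files. In order they are Scn3a (chr2:65457118-65567627, minus strand), Scn2a1 (chr2:65620771-65767447, plus strand, listed there as Scn2a), Scn1a, Scn9a (chr2:66480080-66634962, minus) and Scn7a (chr2:66673425-66784914, minus). Scn3a and Scn2a1 are transcribed away from each other across a gap of 53.1 kb, and Scn9a and Scn7a lie 38.5 kb apart. The upstream sequences shown here belong to 3 sodium pores whose levels each peaked in another class: Scn7a of pituicyte-like cells, Scn2a1 of melanotrope-like cells and Scn8a of somatotrope-like cells. Each is the 250 bases before a RefSeq start (GRCm38.p6), read 5′ to 3′ on the gene's strand. Capitals mark AAGGTCA, the core of the element bound by the orphan receptor NR5A1, on either strand.
Scn7a, chr2:66784911-66785160, minus strand: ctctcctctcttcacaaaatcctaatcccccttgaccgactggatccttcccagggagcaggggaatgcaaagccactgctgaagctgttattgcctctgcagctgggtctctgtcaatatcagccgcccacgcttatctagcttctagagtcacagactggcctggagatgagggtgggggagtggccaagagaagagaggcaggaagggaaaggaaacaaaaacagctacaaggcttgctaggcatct
Scn2a1, upstream start, chr2:65620519-65620768, plus strand: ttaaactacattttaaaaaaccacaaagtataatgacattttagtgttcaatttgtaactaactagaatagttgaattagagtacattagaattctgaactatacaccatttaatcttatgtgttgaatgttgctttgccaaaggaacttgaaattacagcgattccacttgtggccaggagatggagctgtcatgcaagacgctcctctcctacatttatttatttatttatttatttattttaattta
Scn2a1, downstream start, chr2:65668436-65668685, plus strand: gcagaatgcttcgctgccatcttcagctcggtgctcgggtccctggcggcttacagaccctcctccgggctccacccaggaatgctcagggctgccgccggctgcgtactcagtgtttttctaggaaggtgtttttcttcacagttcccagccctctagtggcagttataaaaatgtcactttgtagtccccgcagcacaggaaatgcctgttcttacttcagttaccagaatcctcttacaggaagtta
Scn8a, upstream start, chr15:100870395-100870644, plus strand: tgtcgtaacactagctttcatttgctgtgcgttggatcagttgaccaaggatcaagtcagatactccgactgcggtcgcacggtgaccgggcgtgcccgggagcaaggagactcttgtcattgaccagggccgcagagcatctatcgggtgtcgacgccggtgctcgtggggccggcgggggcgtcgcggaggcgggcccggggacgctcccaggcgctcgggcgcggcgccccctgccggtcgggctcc
Scn8a, downstream start, chr15:100936021-100936270, plus strand: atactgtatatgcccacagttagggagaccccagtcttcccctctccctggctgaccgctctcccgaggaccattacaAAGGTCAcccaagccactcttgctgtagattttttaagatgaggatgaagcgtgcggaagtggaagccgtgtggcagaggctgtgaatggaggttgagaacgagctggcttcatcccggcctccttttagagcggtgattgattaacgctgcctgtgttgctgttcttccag

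The sequences differ in base composition. G and C made up 53.2% of the Scn7a window and 29.6% of the upstream Scn2a1 window, against 53.2% at its downstream start. The upstream Scn8a window had 68.0%, with 30 CG pairs, and the downstream one 53.2% with 9. The median over all 32851 windows of this length was 52.4%. RefSeq windows were found for 30 of the 40 genes, 41 windows in all.

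The same 41 windows were searched on both strands for 6 short words, none of which contains another. The cyclic AMP response element TGACGTCA was in 0 of 41 windows and in 1.55% of all windows. ATGNATA, the core bound by the pituitary factor POU1F1, was in 2 (Cacnb3 and Scn1a), or 4.88%, against 7.92% of all. AAGGTCA was in 2 (Cacna1f and Scn8a), or 4.88%, against 4.08%. The T-box word GGTGTGA was in 1 (Cacna1b), or 2.44%, against 3.33%. CAGCACC, part of the element of the neuronal repressor REST, was in 0, against 5.73%. GGGGCGGGG, a GC box, was in 5 windows (Cacna1b, Cacna1f, Cacna2d1, Cacnb1 and Cacng5), or 12.2%, against 10.4%. These are letter matches only.

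Among the sodium channel pores, Scn7a encodes an atypical channel that senses the sodium concentration outside the cell rather than voltage. Its level in pituicyte-like cells (pituicytes are glia of the neural lobe) was 952 and 1251 CPM (367 of the 418 UMIs in named classes). Both libraries were far above every other class, of which fibroblast-like cells came next at 14.4 and 28.7 CPM and stem-like and macrophage-like cells had 0 UMIs. The mean was 51.1 times that of fibroblast-like cells, and the contrast with the hormone classes gave a log2 fold change of 10.54 ± 0.24 (adjusted p = 1.96e-43). A UMI of Scn7a was found in 100% and 100% of pituicyte-like cells, and in 95% and 93.9% after each cell was thinned to 2000 UMIs. In endothelial-like cells, taken as a background, it was in 0% and 1.99% (0% and 1.99% thinned). The median depth outside hormone genes was 4790 and 5131 UMIs in pituicyte-like cells and 4630 and 4267 in endothelial-like cells. The class is small, and nearly all of its cells had the transcript even at equal depth.

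Scn2a1 encodes a sodium pore of neurons and their axons. It stood at 102 and 126 CPM in melanotrope-like cells, the Pomc cells of the intermediate lobe. The next hormone class, corticotrope-like cells, which also make Pomc, had 7.41 and 8.09 CPM, and somatotrope-like cells had 0.999 and 0.891 CPM. The libraries of melanotrope-like cells did not overlap those of any other class. The mean was 14.7 times that of corticotrope-like cells (log2 fold change 3.88 ± 0.33, adjusted p = 4.93e-18). Against the mean of the other 4 hormone classes the log2 fold change was 5.19 ± 0.25 (adjusted p = 1.1e-34). A UMI was seen in 36.6% and 41.5% of melanotrope-like and in 3.33% and 3.08% of corticotrope-like cells, whose median depths were alike (4003 and 4182 against 4055 and 3890 UMIs). In endothelial-like cells it was 0.769% and 0%.

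Its neighbour Scn3a, a pore best known from the developing brain, was spread over the hormone cells. It was at 65.5 and 72.2 CPM in gonadotrope-like, 50 and 54.8 in lactotrope-like, 50.3 and 43.4 in melanotrope-like and 40.7 and 44.9 in corticotrope-like cells. Somatotrope-like cells stood apart at 15.6 and 12.8 CPM, below every library of the other 4 hormone classes (log2 fold change −1.87 ± 0.12, adjusted p = 1.61e-25). The values of melanotrope-like cells overlapped those of both lactotrope-like and corticotrope-like cells, while gonadotrope-like cells were above all other classes. Scn3a was higher in gonadotrope-like cells (0.98 ± 0.13, adjusted p = 1.82e-10) and in lactotrope-like cells (0.49 ± 0.11, adjusted p = 7.3e-05).

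Somatotrope-like cells, the growth hormone cells, were high in another sodium pore. Scn8a, the pore of the axon initial segment and nodes in neurons, was at 43.6 and 43.7 CPM there. It was at 22.3 and 20.5 CPM in lactotrope-like cells and between 16.5 and 22.2 CPM in each library of the other 3 hormone classes. Both somatotrope-like values were above all of these (log2 fold change 1.18 ± 0.12, adjusted p = 7.35e-15). Cycling cells, whose median cell was also rich in Gh (52.3% and 50.9% of UMIs, against 62.5% and 61.7% in somatotrope-like cells), had 30 and 29 CPM of Scn8a.

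Scn9a, a pore known from pain-sensing neurons, was low in hormone cells. It reached 13.9 and 8.09 CPM in corticotrope-like and 5.58 and 10.5 CPM in melanotrope-like cells, and the ranges of these classes overlapped. Somatotrope-like cells had 0.333 and 0.0636 CPM from 6 UMIs. It was higher in both Pomc classes than in the mean of the other hormone classes (3.01 ± 0.52 and 2.56 ± 0.74, adjusted p = 1.05e-06 and 0.00683). In pituicyte-like cells it was at 48.8 and 20 CPM from 10 UMIs (log2 fold change 3.98 ± 0.82, adjusted p = 5.94e-05).

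**Figure D2:**
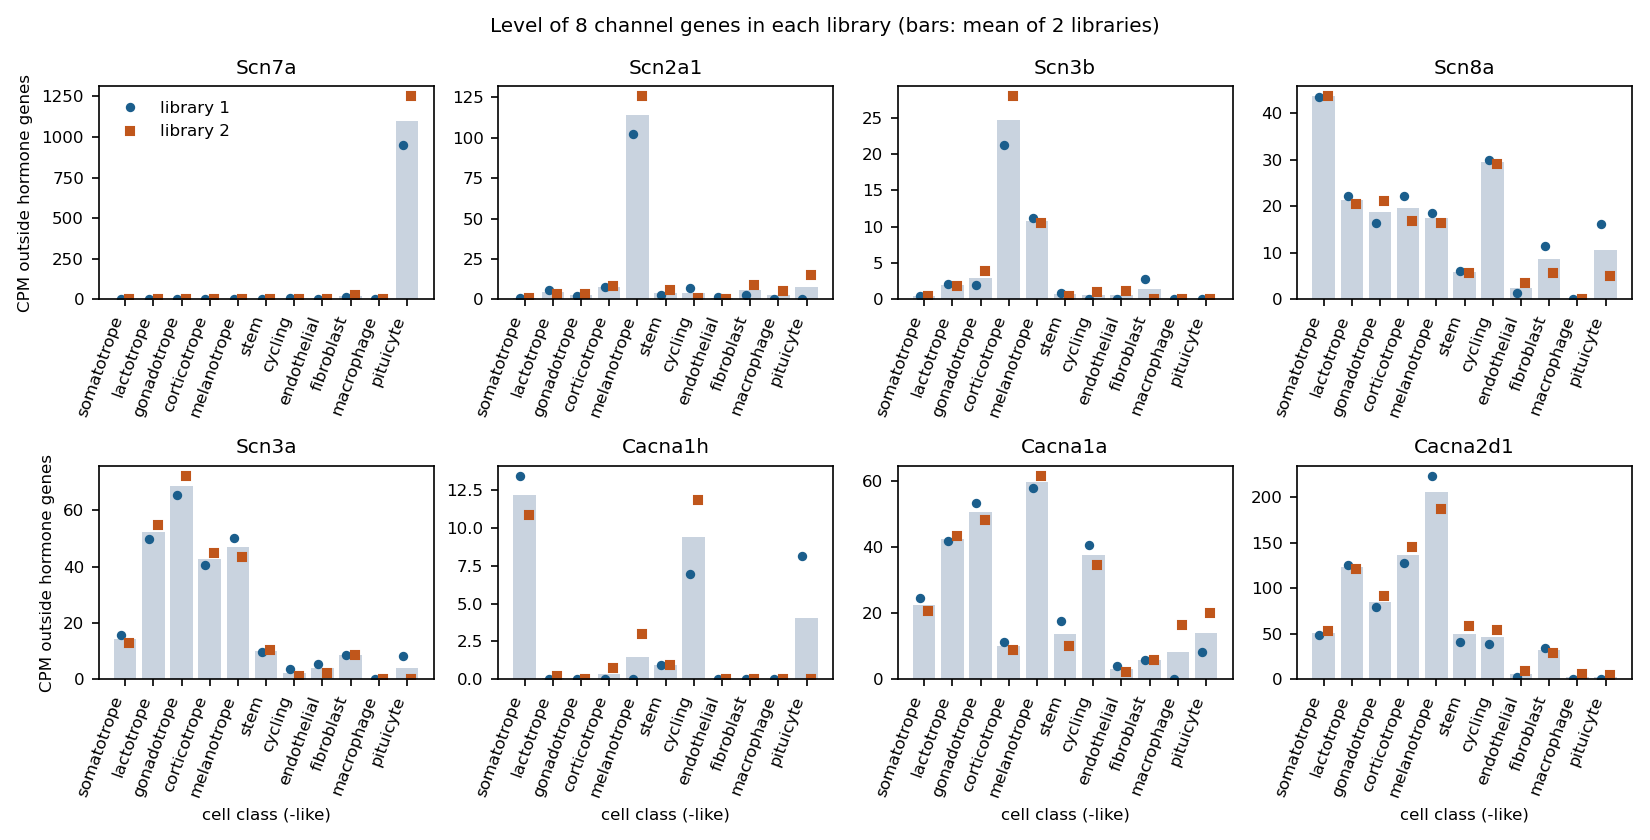
Level (CPM outside hormone genes, linear axes that start at 0) of 8 channel genes in 11 cell classes; circles are library 1, squares library 2 and bars their mean. Scn7a, Scn2a1, Scn3b, Scn8a and Cacna1h each peak in 1 or a few classes in both libraries, while Scn3a, Cacna1a and Cacna2d1 are spread over the hormone classes.

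The UMIs of all 10 sodium pore genes together came to 13.8 and 14 CPM in endothelial-like, 27.8 and 26 in stem-like and 0 and 5.48 (1 UMI) in macrophage-like cells. Fibroblast-like cells had 37.3 and 57.5 CPM. In the 5 hormone classes these sums lay between 78.1 and 207 CPM, and in pituicyte-like cells they were 1025 and 1291 CPM, most of it Scn7a.

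Of the sodium channel beta subunits, Scn3b was at 21.3 and 27.9 CPM in corticotrope-like and 11.2 and 10.5 in melanotrope-like cells, against 0.4 and 0.446 in somatotrope-like cells. Both corticotrope-like values were above all others (log2 fold change 3.40 ± 0.35, adjusted p = 3.87e-14), and melanotrope-like cells also passed the test (log2 fold change 1.90 ± 0.59, adjusted p = 0.0128). Scn2b was at 29.8 and 37.4 CPM in melanotrope-like, 29.6 and 17.6 in corticotrope-like, 19.3 and 18.8 in lactotrope-like, 18.1 and 16.7 in somatotrope-like and 11.2 and 9.52 in gonadotrope-like cells. It passed the test as higher in melanotrope-like (1.02 ± 0.27, adjusted p = 0.00311) and as lower in gonadotrope-like cells (−1.13 ± 0.23, adjusted p = 2.09e-05). The long noncoding RNA gene Gm10684 lies on the opposite strand at the 3′ end of Scn2b. Use of strand in the counting is not stated, and without it such overlapping genes could not be told apart.

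Turning to calcium pores, Cacna1d is the L-type pore known from endocrine and pacemaker cells. It was at 39.1 and 29.9 CPM in melanotrope-like, 28.2 and 29.3 in somatotrope-like, 23.1 and 24.3 in corticotrope-like, 19.4 and 16.9 in lactotrope-like and 13.1 and 18.6 in gonadotrope-like cells. The highest mean was 2.18 times the lowest. Lactotrope-like and gonadotrope-like values overlapped, and the other neighbours in this order did not. Somatotrope-like cells passed the test as higher (0.39 ± 0.12, adjusted p = 0.00603) and lactotrope-like and gonadotrope-like cells as lower (−0.45 ± 0.14 and −0.67 ± 0.20, adjusted p = 0.00612 and 0.00376). The call in melanotrope-like cells (0.69 ± 0.26, adjusted p = 0.0486) was lost under 4 alternatives, and the somatotrope-like one with DESeq2 (adjusted p = 0.0753). The protein-coding gene Chdh lies on the opposite strand at its 3′ end.

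Cacna1a, the P/Q-type pore of nerve terminals, was at 57.7 and 61.4 CPM in melanotrope-like and 11.1 and 8.82 CPM in corticotrope-like cells, the 2 Pomc classes. Gonadotrope-like cells had 53.3 and 48, lactotrope-like cells 41.7 and 43.2 and somatotrope-like cells 24.6 and 20.6 CPM. Corticotrope-like cells were below all other hormone classes in both libraries (log2 fold change −2.06 ± 0.25, adjusted p = 2.64e-11), and the direct contrast of the Pomc classes gave 2.60 ± 0.32 (adjusted p = 1.22e-10). A UMI was found in 24.1% and 23.9% of melanotrope-like and 4.58% and 3.69% of corticotrope-like cells, and in 2.31% and 1.32% of endothelial-like cells. Cacna1b, the N-type pore, was at 16.9 and 19.1 CPM in somatotrope-like, 17 and 15.1 in gonadotrope-like, 13.3 and 12.5 in lactotrope-like and 13 and 8.82 in corticotrope-like cells, and melanotrope-like cells (18.6 and 4.49 CPM) overlapped all of these. The small excess in somatotrope-like cells (0.53 ± 0.17, adjusted p = 0.00602) was not called with DESeq2 (adjusted p = 0.0962). It was 0.20 in library 1 alone and 1.10 in library 2 alone.

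T-type pores open at low voltage and are linked to pacemaking. Cacna1h was at 13.4 and 10.9 CPM in somatotrope-like cells (373 of 400 UMIs) and 6.93 and 11.8 CPM in cycling cells. The other 4 hormone classes had 5 UMIs between them: 2 in lactotrope-like, 1 in corticotrope-like, 2 in melanotrope-like and 0 in gonadotrope-like cells. Somatotrope-like cells were the highest class in library 1 and cycling cells in library 2. The contrast of somatotrope-like with the other hormone cells gave 5.49 ± 0.41 (adjusted p = 4.02e-22), and lactotrope-like against somatotrope-like cells −6.22 ± 0.44 (adjusted p = 3.5e-23). Cacna1h passed the filter on low counts only through library 1 of somatotrope-like and library 2 of cycling cells. Neither call is therefore separate support. The contrast of gonadotrope-like cells with the other hormone classes was not called (adjusted p = 0.0601). The mast cell protease gene Tpsg1 lies on the opposite strand at the 3′ end of Cacna1h. Cacna1g had its highest level, 20.1 and 20.1 CPM from 14 UMIs, in fibroblast-like cells, and 0.43 to 3.72 CPM or 0 UMIs in each library of the hormone classes. It was called higher in stem-like cells (2.78 and 3.3 CPM, 2.37 ± 0.76, adjusted p = 0.00534).

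Alpha-2-delta proteins carry pores to the surface and are the targets of gabapentin. Cacna2d1 had more UMIs than any other channel gene (4909 in named classes). It was at 223 and 187 CPM in melanotrope-like, 128 and 145 in corticotrope-like, 126 and 122 in lactotrope-like, 79.5 and 91.3 in gonadotrope-like and 48.5 and 53.3 in somatotrope-like cells. No library of melanotrope-like cells overlapped another class, and no library of somatotrope-like cells overlapped another hormone class. Melanotrope-like cells exceeded corticotrope-like cells by 0.57 ± 0.13 (adjusted p = 0.000542), and somatotrope-like cells differed from the other hormone classes by −1.36 ± 0.07 (adjusted p = 1.41e-33). The small excess in lactotrope-like cells (0.24 ± 0.06, adjusted p = 0.00101) was not called with plain totals (adjusted p = 0.169) or DESeq2 (adjusted p = 0.361).

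Cacna2d2 had its highest level in pituicyte-like cells, 89.5 and 155 CPM, followed by melanotrope-like cells at 27.9 and 29.9. Corticotrope-like and somatotrope-like cells were lowest of the hormone classes, the former at 5.55 and 4.41 and the latter at 5.99 and 5.6 CPM. Pituicyte-like cells had much Cacna2d2 (3.49 ± 0.35 against hormone cells, adjusted p = 4.96e-15) and little Cacna2d1 (1 UMI, −5.12 ± 0.67, adjusted p = 8.72e-10). Melanotrope-like and corticotrope-like cells differed by 2.55 ± 0.48 (adjusted p = 1.31e-05).

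Beta subunits bind the pore inside the cell. Cacnb3 was the most counted, at 85.2 and 91.2 CPM in corticotrope-like, 74.5 and 70.8 in lactotrope-like, 57.7 and 64.4 in melanotrope-like, 60 and 45.1 in somatotrope-like and 29.6 and 24.7 in gonadotrope-like cells. Gonadotrope-like cells were below every other hormone class (log2 fold change −1.32 ± 0.15, adjusted p = 3.94e-12). For Cacnb2 the order was the opposite at that end: gonadotrope-like cells were highest at 35.4 and 35.9 CPM, with 9.86 and 8.59 in somatotrope-like and 11.7 and 7.74 in lactotrope-like cells (log2 fold change 1.49 ± 0.19, adjusted p = 5e-10). In stem-like cells the libraries disagreed on Cacnb2, 14.8 and 29.7 CPM, and without library 2 the difference from hormone cells changed sign. Cacnb4 was at 32.5 and 110.1 CPM in pituicyte-like cells (26 UMIs, log2 fold change 4.06 ± 0.51, adjusted p = 1.56e-10) and at or below 10.5 CPM in each library of the hormone classes. The noncoding gene A430018G15Rik lies on the opposite strand at its 3′ end. Cacnb1 was low and passed no test; its highest hormone-class level was 5.58 and 12 CPM in melanotrope-like cells.

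Most gamma subunit genes are better known for carrying AMPA-type glutamate receptors. Cacng4 was at 11.6 and 15.6 CPM in gonadotrope-like cells and at or below 1.5 CPM in each library of the other 4 hormone classes (log2 fold change 4.75 ± 0.46, adjusted p = 1.22e-15). It was also present in stem-like (9.26 and 10.9 CPM, 3.36 ± 0.46, adjusted p = 5.54e-10) and fibroblast-like cells (20.1 and 20.1 CPM). Cacng2 was at 18.5 and 11.8 CPM in corticotrope-like and 2.13 and 1.91 CPM in somatotrope-like cells (log2 fold change 1.95 ± 0.39, adjusted p = 3.11e-05). Cacng7 lay between 12.6 and 28.5 CPM in each library of the hormone classes, and Cacng8 was highest in gonadotrope-like cells at 20.9 and 13 CPM (log2 fold change 1.20 ± 0.27, adjusted p = 0.000137).

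**Figure D3:**
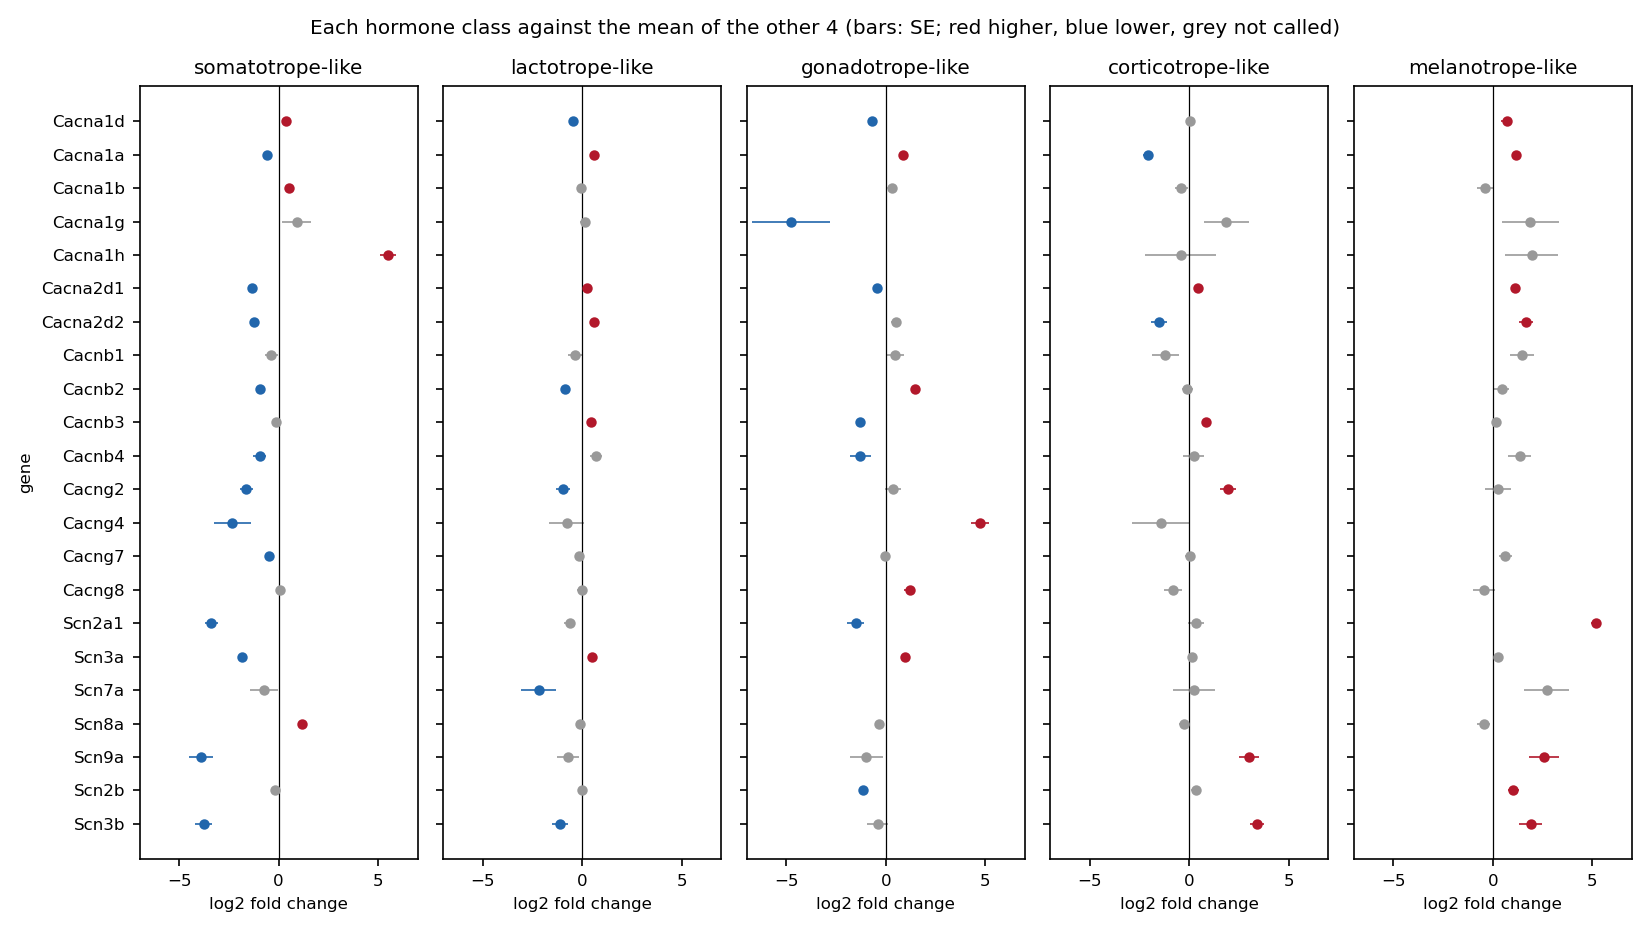
Log2 fold change of 22 judged channel genes in each hormone class against the mean of the other 4, with SE bars; red points were called higher, blue lower and grey neither, and values with an SE of 2 or more are not drawn. The calls drawn for melanotrope-like cells are all higher, while most of those for somatotrope-like cells are lower.

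Counted by class, somatotrope-like cells had 5 of 24 channel genes higher and 13 lower than the other hormone classes. That is 75.0% of the genes called, against 46.6% of all genes tested, and 54.2% lower against 20.2%. The higher ones included Cacna1h, Scn8a, Cacna1b and Cacna1d. Of these, Cacna1h had passed the filter on low counts partly through somatotrope-like cells, which adds to the count of higher genes. The lower ones included Scn9a, Scn3b, Scn2a1, Cacng4, Scn3a, Cacng2, Cacna2d1, Cacna2d2, Cacnb2, Cacnb4, Cacna1a and Cacng7. The median log2 fold change of the 24 was −0.65, against 0.06 over all genes. The Cacng4 call, where gonadotrope-like cells alone of the other classes were over 1.5 CPM, was lost with no filter on low counts (adjusted p = 0.0508) and with clustering on variable genes (adjusted p = 1). The split was 3 higher and 12 lower with DESeq2, and 3 and 14 with the hormone genes kept in the totals.

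Lactotrope-like cells had 5 genes higher and 6 lower, or 45.8% against 42.5% of all genes, so their share was near the background. Higher were Scn3a (0.49 ± 0.11), Cacna1a, Cacna2d2, Cacnb3 and Cacna2d1, and the lower ones included Scn7a, Scn3b, Cacng2, Cacnb2 and Cacna1d. The median was −0.26 against 0.03. The split moved both ways: it was 2 and 6 with DESeq2 and 4 and 7 with plain totals. It was 6 and 6 with the hormone genes kept in the totals and 6 and 5 with clustering on variable genes. With no filter on low counts, where all 40 genes were counted, it was 9 and 6, and all 11 main calls were kept. The Scn7a call rests on 3 UMIs in lactotrope-like cells and was lost under 6 alternatives.

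Gonadotrope-like cells had 7 genes higher and 7 lower, 58.3% against 36.2% (19.8% of all genes were called higher and 16.4% lower), with a median of −0.03 against −0.01. The higher ones included Cacng4, Cacnb2, Cacng8, Scn3a and Cacna1a. Of these, Cacng8 had passed the filter on low counts through gonadotrope-like cells alone, which adds to the count of higher genes. Lower were Cacna1g, Scn2a1, Cacnb3, Cacnb4, Scn2b, Cacna1d and Cacna2d1. Cacna1g had 0 UMIs in these cells, where 3 UMIs would be 0.686 CPM, and its call was lost under 4 alternatives.

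Corticotrope-like cells had 6 higher and 3 lower, 37.5% against 31.4%, again near the background, with a median of 0.09 against −0.03. The higher ones included Scn3b, Scn9a, Cacng2, Cacnb3 and Cacna2d1, and the lower ones Cacna1a and Cacna2d2. Scn3b and Cacng2 had passed the filter on low counts through this class alone, which adds to the count of higher genes. The split was 7 and 2 with the hormone genes kept in the totals.

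Melanotrope-like cells had 9 genes higher and 0 lower, 37.5% against 19.1% of all genes, where 11.1% of all genes were higher and 7.95% lower. They included Scn2a1, Scn9a, Scn3b, Cacna2d2, Cacna1a (1.19 ± 0.22), Cacna2d1 (1.13 ± 0.11), Scn2b and Cacna1d. Of these, Scn2a1 had passed the filter on low counts through melanotrope-like cells alone, which adds to the count. The median of the 24 was 1.08, against −0.05 over all genes. No alternative gave a lower gene: DESeq2 called 10 higher, and the other 9 alternatives 8 or 9. Of the 24 genes, 11 had their highest hormone-class mean in melanotrope-like cells, 5 in gonadotrope-like, 4 in corticotrope-like, 4 in somatotrope-like and 0 in lactotrope-like cells. This order takes no account of error, and melanotrope-like cells are the smallest hormone class. Scn7a and Cacna1g are among the 11 on only 4 and 2 UMIs. Cacng3, Scn11a and Cacna1e, which did not pass the filter on low counts, had their highest hormone-class mean in lactotrope-like cells. Against corticotrope-like cells alone, 4 genes were higher and 0 lower (Scn2a1, Cacna1a, Cacna2d2 and Cacna2d1), 16.7% against 20.4% of all genes (10.8% higher and 9.65% lower). There the split was 4 and 2 with doublets kept and 4 and 1 with the hormone genes kept in the totals. It was 5 and 2 with clustering on variable genes. With no filter on low counts, where the genes that failed it are counted too, it was 4 and 2.

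Lactotrope-like and somatotrope-like cells, which share a lineage, differed in 15 of 24 genes, 62.5% against 45% of all genes (21.7% higher and 23.3% lower). In lactotrope-like cells 9 were higher (among them Scn9a, Scn2a1, Scn3b, Scn3a, Cacna2d2, Cacnb4, Cacna2d1, Cacna1a and Cacnb3) and 6 lower (among them Cacna1h, Scn8a, Cacna1d and Cacna1b). Cacna1h had passed the filter on low counts partly through somatotrope-like cells, which adds to the count of lower genes. The split was 11 and 4 with the hormone genes kept in the totals. Scn3a was at 1.89 ± 0.12 and Scn8a at −1.03 ± 0.12 (adjusted p = 5.15e-26 and 3.99e-12).

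Stem-like cells had 4 genes higher than the mean of the hormone classes (among them Cacng4, Cacna1g and Cacnb2) and 12 lower, 66.7% against 58.7% of all genes, with 50.0% lower against 27.9%. The lower ones were Scn9a, Cacng2, Scn2b, Scn3b, Scn3a, Scn8a, Cacng7, Cacna1b, Cacng8, Cacna1d, Cacna1a and Cacna2d1. Scn8a was at 6.01 and 5.66 CPM and Scn2b at 3.24 and 3.78 CPM (−1.95 ± 0.26 and −2.45 ± 0.31). The median was −1.15 (−0.89 with genes at 0 UMIs set to their limits) against 0.00. Scn9a had 0 UMIs in stem-like cells and was at least 6.19-fold lower.

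Endothelial-like, fibroblast-like and macrophage-like cells, taken as 1 mean, had 1 gene higher and 14 lower (Cacng2, Scn3a, Cacna2d2, Scn2b, Cacng8, Scn8a, Cacng7, Cacna2d1, Scn3b, Cacnb3, Cacna1a, Cacnb2, Cacna1b and Cacna1d), 62.5% against 49.9%, with 58.3% lower against 29.8%. The median was −2.81 (−2.68 at the limits) against −0.19. Cacng2 had 0 UMIs in the 3 classes. With 3 UMIs allowed in each of them, it is placed only at least 1.25-fold lower. The Scn3b call was lost with DESeq2 (adjusted p = 0.0678), with no filter on low counts (0.053) and with a coarser clustering (0.0513). Calcium channel pores summed to 15.2 and 9.33 CPM in endothelial-like, 33.9 and 43.8 in macrophage-like and 57.4 and 43.1 in fibroblast-like cells. The last overlapped corticotrope-like cells (59.2 and 52.9 CPM), the lowest hormone class, while melanotrope-like cells had 125 and 117 CPM. The 3 classes were not uniform: fibroblast-like cells had 34.5 and 28.7 CPM of Cacna2d1, endothelial-like cells 2.76 and 9.33 and macrophage-like cells 1 UMI. Pericyte markers were counted with fibroblast markers, so the fibroblast-like class may hold both.

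Pituicyte-like cells had 4 genes higher (Scn7a, Cacnb4, Scn9a and Cacna2d2) and 5 lower (Cacna2d1, Scn3a, Cacnb3, Scn2b and Cacna1b), 37.5% against 21%. Of the higher genes, Cacnb4 and Scn9a had passed the filter on low counts through this class alone, which adds to the count. The median was 0.29 (0.53 at the limits) against −0.25. The split was 6 and 4 with DESeq2. Scn2b had 0 UMIs and was at least 2.24-fold lower; Cacna1b had 0 UMIs and was at least 1.49-fold lower, a call lost under 3 alternatives. With 101405 and 179167 UMIs outside the hormone genes in the class, 3 UMIs over both libraries are 9.29 CPM. The median cell of this class had 11% and 10.5% mitochondrial UMIs, above every other class, and the part of this in the result was not tested.

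The mix of pore transcripts within a class can be given as a share of its pore UMIs, with an exact binomial interval that covers counting error only. Such a share compares captured 3′ ends. Scn8a made up 55.8% (95% interval 53.8% to 57.8%) of sodium pore UMIs in somatotrope-like cells and 25.2% (95% interval 22.9% to 27.5%) in lactotrope-like cells. Scn3a made up 18.1% (95% interval 16.6% to 19.7%) in the former and 62.3% (95% interval 59.7% to 64.8%) in the latter, and 69.4% (95% interval 64.9% to 73.7%) in gonadotrope-like cells. Both libraries showed the same leading pore in each of these classes. In melanotrope-like cells Scn2a1 led with 56.7% and 60.9% in the libraries, and in corticotrope-like cells Scn3a with 47.8% and 55%. In pituicyte-like cells Scn7a was 95.6% (95% interval 93% to 97.4%) of the sum.

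Among calcium pores Cacna1a led in lactotrope-like (47.4% and 49.4%), gonadotrope-like (48.9% and 45.5%) and melanotrope-like cells (46.3% and 52.6%). Cacna1d led in somatotrope-like (30.1% and 31.8%) and corticotrope-like cells (39.1% and 45.8%). The corticotrope-like share rests on 136 UMIs of calcium pores. Their summed level was also the lowest of the hormone classes, 59.2 and 52.9 CPM, against 109 and 106 in gonadotrope-like cells. Cacna1h gave 14.4% and 11.8% in somatotrope-like cells.

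**Figure D4:**
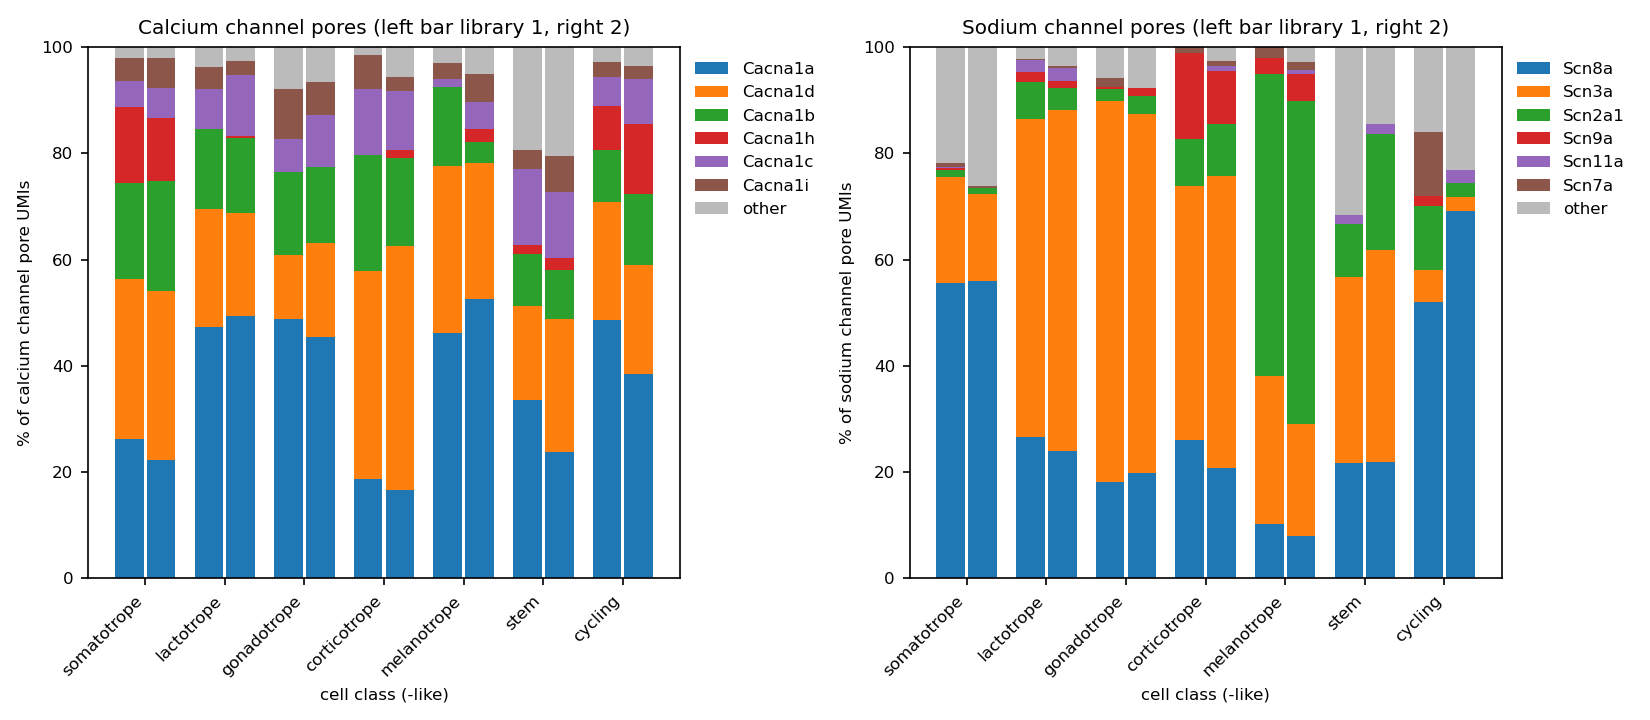
Share (%) of calcium (left) and sodium (right) channel pore UMIs by gene in 7 cell classes; each class has a bar for library 1 and one for library 2. Scn8a fills the largest part in somatotrope-like cells, Scn3a in lactotrope-like, gonadotrope-like and corticotrope-like cells and Scn2a1 in melanotrope-like cells; Cacna1a or Cacna1d leads the calcium pores of every hormone class.

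The 16 genes that did not pass the filter on low counts were Cacna1c (407 UMIs), Cacng6 (380), Cacna1i (253), Cacng3 (102), Cacna1e (93), Cacna2d3 (88), Cacna2d4 (64), Cacng5 (56), Cacna1f (44), Scn11a (43), Scn4a (31), Scn1a (20), Scn10a (13), Cacng1 (10), Scn4b (5) and Cacna1s (1). A low UMI number here does not show that a channel is absent: 3 UMIs over both libraries are 0.0976 CPM in somatotrope-like cells but 9.29 CPM in pituicyte-like cells. Several were lopsided between classes. The filter weighs UMIs against the totals of the sums. Cacna1c, Cacng6 and Cacna1i, counted mostly in large classes, therefore failed it, while Cacna1g passed with 77 UMIs. With no filter on low counts the 16 genes could be fitted too, many on few UMIs, and adjusted p-values from that fit are given where printed. Cacna1f, the L-type pore of the retina, had 31 of its 44 UMIs in gonadotrope-like cells (8.73 and 5.62 CPM, adjusted p = 2.33e-10). Cacng3 had 79 of 102 in lactotrope-like cells (4.48 and 4.95 CPM, adjusted p = 5.33e-10), and the sensory neuron pore Scn11a 34 of 43 in the same class (1.9 and 2.15 CPM, adjusted p = 0.000237). Scn4a, the pore of skeletal muscle, had 28 of 31 in somatotrope-like cells (adjusted p = 0.00197), and Cacna1e, the R-type pore, 24 of 93 in stem-like cells (6.48 and 4.72 CPM, adjusted p = 2.24e-05). The somatotrope-like libraries differed in Scn4a, which made up 0.595% and 1.71% of their sodium pore UMIs. Its mean there, 0.901 CPM, is near the 0.686 CPM that 3 UMIs would be in gonadotrope-like cells, which had 0 UMIs.

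Cacna2d3 had 26 UMIs in corticotrope-like (11.1 and 10.3 CPM, adjusted p = 7.75e-08) and 25 in gonadotrope-like cells (5.33 and 6.06 CPM), and 5 in the far larger somatotrope-like class. Cacng6 was at 9.99 and 6.62 CPM in somatotrope-like and 6.38 and 5.48 in lactotrope-like cells, with 1 UMI in gonadotrope-like cells. Cacna1c, the L-type pore of heart and vessels, was between 1.86 and 10.4 CPM in each library of the hormone classes. Its values in lactotrope-like cells (6.65 and 10.1 CPM) were above those in somatotrope-like cells (4.6 and 5.16 CPM), a difference called without the filter (0.76 ± 0.21, adjusted p = 0.00164). Cacna1i, the remaining T-type pore, was at 10.2 and 6.49 CPM in gonadotrope-like and 4 and 5.22 in somatotrope-like cells. Cacna1s, Scn4b, Cacng1, Scn10a and Scn1a had at most 20 UMIs each in all classes together. The 10 of Cacng1 were 5 in gonadotrope-like cells, from both libraries, and 5 in endothelial-like cells, all from library 2.

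A list of 29 further genes held channel partners and regulators (small GTPases of the Rem, Rrad and Gem family, Stac proteins, Fgf11 to Fgf14, ankyrins, the spectrin Sptbn4, Rim proteins, Cabp1 and calmodulins) and other channels of excitable cells (the sodium leak channel Nalcn with its partners, and Hcn channels). Of these, 20 could be tested. Somatotrope-like cells had 5 higher and 9 lower than the other hormone classes, where 46.6% of all genes were called. Fgf13, whose product binds sodium pores, was at 30.7 and 28.6 CPM there and 0.951 and 2.15 in lactotrope-like cells (3.21 ± 0.21). Rem2, an inhibitor of calcium channels, was at 68.3 and 84.5 CPM (1.42 ± 0.18), while Ank3, the ankyrin that anchors sodium channels, was at 16.2 and 14.4 CPM (−1.70 ± 0.11). Lactotrope-like cells had 3 higher and 13 lower, with 42.5% of all genes called. Of the calcium channel inhibitors, Gem was at 3.26 and 2.69 CPM (−4.20 ± 0.19) and Rrad at 0.272 and 0.86 CPM (−4.22 ± 0.86) in lactotrope-like cells. Rrad was at 97.9 and 54.5 CPM in gonadotrope-like and Gem at 101 and 152 CPM in corticotrope-like cells.

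In gonadotrope-like cells 8 of these 20 genes were higher and 4 lower (36.2% of all genes were called there), and in melanotrope-like cells 8 and 0 (19.1%). In corticotrope-like cells it was 5 and 3, near the 31.4% of all genes. In stem-like cells 3 were higher and 14 lower (58.7%), in the mean of endothelial-like, fibroblast-like and macrophage-like cells 4 and 14 (49.9%), and in pituicyte-like cells 1 and 8 (21%). Fgf13 was also at 31.9 and 45.8 CPM in stem-like cells (2.96 ± 0.23), and Nalcn was at 4.14 and 2.33 CPM in endothelial-like cells against 42.8 and 43.4 in melanotrope-like cells.

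Of 28 genes of calcium stores, clearance and buffering, 18 could be tested. The sarcoplasmic pump Atp2a1, known from fast muscle, was at 26.8 and 25 CPM in corticotrope-like cells and at or below 3.03 CPM in each library of the other hormone classes (5.53 ± 0.46). The buffer Calb1 was at 437 and 448 CPM in melanotrope-like and 12.6 and 18.2 in gonadotrope-like cells (2.83 ± 0.11 and −3.21 ± 0.16). The plasma membrane pump Atp2b4 was at 129 and 129 CPM in gonadotrope-like and 2.31 and 1.4 in lactotrope-like cells (3.34 ± 0.13 and −4.33 ± 0.25). The sodium-calcium exchanger Slc8a2 was at 15 and 16 CPM in gonadotrope-like cells and had 0 UMIs in lactotrope-like cells. Itpr3, a store release channel, was at 17 and 15.9 CPM in lactotrope-like cells (2.13 ± 0.25). In pituicyte-like cells the mitochondrial exchanger Slc8b1 was at 48.8 and 75.1 CPM (4.54 ± 0.53) and the uniporter Mcu at 81.4 and 105 CPM (2.92 ± 0.39), while the uniporter regulator Micu2 had 1 UMI and was called lower (adjusted p = 0.0389). This class also had the high mitochondrial share given above, and the part of that share in these values was not tested. Of the 18, 7 were higher and 4 lower in somatotrope-like cells (46.6% of all genes were called there), 3 and 8 in lactotrope-like (42.5%), 7 and 3 in gonadotrope-like (36.2%), 7 and 1 in corticotrope-like (31.4%) and 3 and 3 in melanotrope-like cells (19.1%). It was 10 and 3 in stem-like cells (58.7%), 6 and 6 in the mean of endothelial-like, fibroblast-like and macrophage-like cells (49.9%) and 4 and 2 in pituicyte-like cells (21%). In stem-like cells the store release channel Itpr2 was at 29.1 and 26.4 CPM (2.85 ± 0.25).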

How the data were processed

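Whole-gland cell suspensions from 2 pools were profiled with 10x 3′ chemistry (v2). The authors deposited a matrix of UMI counts per gene and barcode. Cell Ranger, STAR and mm10 are named in the submitters' processing notes, versions not given in the sources used here. The barcode ending was taken as the pool number. Whether the authors equalised depth between libraries is not stated.

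Cells with at least 500 UMIs, 250 genes and at most 20% mitochondrial UMIs were kept (6505 and 7060). Scrublet called 2 and 6 doublets and so had not worked; instead the top 7.6% of its scores, the multiplet rate in the labels, were removed (494 and 537 cells). Cells were clustered with scanpy 1.11.5 (113 marker genes, 12 components, 15 neighbours, Leiden resolution 1). A cluster took the class with the largest share of markers above the midpoint between clusters, with at least 3, and stayed unnamed where over 20% of cells had over 30% Gh or another class led its top 10 genes. That rule was chosen with the clusters in view. With 2000 variable genes in place of markers, 97.4% of the 10505 cells named under both clusterings kept their class. Cells of the 11729 that lost their name are not in this share. An unnamed cluster then held 1176 cells. Lactotrope-like cells fell from 3182 to 2215, while somatotrope-like cells rose from 5977 to 6311.

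UMIs were summed per class and library, the 7 hormone genes left out, and tested with edgeR 4.0.16 (R 4.3.3): TMM, filterByExpr, robust quasi-likelihood fit over 22 sums with library as a block, which is the pool the sums share, 10 residual degrees of freedom, Benjamini-Hochberg adjustment over 12109 genes, threshold 0.05. Each gland pool gives every class, so the pairing comes from the design. A gene with too few UMIs for this filter was left out of the counts of calls. Not all single values that rest on under 10 UMIs are marked in the text. Against 0 UMIs a fold is a bound from 3 UMIs over both libraries of a class. Where 3 classes were taken as 1 mean, the bound is the mean of their separate limits. For the somatotrope-like contrast alone, the test was checked on simulated data. Members are named with their values, except 2 that are not reported here though counted; the other genes named are list members with large called changes. The members and lists were chosen with earlier results of these data known. Alternatives were DESeq2 1.42.0, other totals and filters, other clusterings, and fits without Gh-rich cells or without the block. Positions are from GENCODE M21 and sequences from RefSeq.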

Additional observations from a re-analysis of the deposited data

How the results depend on the processing

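The number of channel genes called stayed within 1.5 times the main number in each of the 10 comparisons under each alternative that could be run, with 1 exception. Melanotrope-like against corticotrope-like cells gave 7 genes (5 higher, 2 lower) in place of 4 when cells were clustered on variable genes, and all 4 were among the 7. Without the replicate block, the count moved by at most 1, from 11 to 10 in lactotrope-like cells, where Scn7a was lost; it changed no other channel call. No direction of a called gene reversed under another scaling. Without replicate 2, the log2 fold change of Cacnb2 in stem-like cells was −0.25 in place of 0.51, and 1.16 without replicate 1; the cause was not tested, and the levels by library are above. Leaving out 1 library also moved other called fold changes by more than the spread between libraries, 25 of 120 without replicate 1 and 36 of 120 without replicate 2, with the sign kept. That spread is the standard deviation of the same 2 single-library values. It is small where they agree, so these counts do not measure how unstable a call is. No counts could be tested with 1 library left out, because no residual degrees of freedom remain. Of the calls of single genes, 13 of 120 were lost with DESeq2 and at most 4 under each other alternative, of the 111 to 120 it could test. DESeq2's calls lost include Cacnb3 and Cacna2d2 in lactotrope-like and Cacnb4 in somatotrope-like and gonadotrope-like cells. Pituicyte-like cells dropped out when Gh-rich cells were removed, since 19 cells remained in library 1, under the minimum of 20. Another scaling moved the median log2 fold change of all genes by over 0.1 in several comparisons, at most from −0.25 to 0.05 (DESeq2, pituicyte-like cells). With it moved the share of all called genes that were higher: with DESeq2 from 56.7% to 46.1% in somatotrope-like, 56.6% to 42.8% in lactotrope-like, 52.2% to 63.9% in corticotrope-like, 58.3% to 72.9% in melanotrope-like and 51.4% to 71.5% in pituicyte-like cells. In endothelial-like, fibroblast-like and macrophage-like cells it was 40.3%, against 53.3% with DESeq2 and 29.6% with plain totals, and in lactotrope-like against somatotrope-like cells 48.2%, against 35.3% with plain totals. Depth limits the small classes most: 3 UMIs are 9.29 CPM in pituicyte-like and 0.686 CPM in gonadotrope-like cells.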
